A study of Mus musculus with 4 samples.

Results

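The genes described here encode carriers that move bile acids, bilirubin, steroid and thyroid hormone conjugates, prostaglandins and drugs across the cell membrane of the liver. They are Slc10a1, Slco1a1, Slco1a4, Slco1b2, Slco2a1, Slco2b1, Slco3a1, Slc51a and Slc51b, the last pair printed on the array under the older names Osta and Ostb. Members were taken as the probes whose gene name on the array was one of these, which gave 13 probes of 9 genes among 39429 probes of 30139 genes. Of these, 11 probes of 8 genes were bright enough to test, and both probes of Slc51a were not.

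Whole liver of female C57B/6 mice was compared 1 week after an injection of adeno-associated virus, a vector that delivers a gene to hepatocytes. All animals were 8 to 10 weeks of age, homozygous for a floxed allele of Trib1, fed chow and fasted for 4 hours before the liver was taken. The treated group received AAV_Cre, which carries Cre recombinase and deletes floxed sequence, and the control group received AAV_Null, so that both groups carry the floxed allele and both received virus. The series title names Trib1, a pseudokinase, and its control of C/EBPα protein and lipid synthesis as the study's question. There were 4 two-colour Agilent arrays, each with 1 RNA of each treatment, and the dyes were balanced: Cy5 marked AAV_Cre on arrays 1 and 2 and AAV_Null on arrays 3 and 4. The labels give neither the promoter that drives Cre, nor the part of Trib1 that is floxed, nor whether an RNA came from 1 animal or a pool. Nothing says that the RNA of different arrays came from separate animals, so the spread between arrays may be in part technical. The p-values of the reported fit measure that spread only within a dye orientation.

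Of 43020 spots per array beside the controls, 51.0% to 58.7% were well above background in each dye and 0 were saturated. Across genes, which are not independent replicates, the ratio of AAV_Cre to AAV_Null correlated at 0.67 and 0.49 within a dye orientation and at 0.07 to 0.19 between orientations. The treatment was therefore fitted together with a dye effect in limma. Trib1 itself had higher signal in the RNA labelled AAV_Cre at both RefSeq probes, with log2 ratios of 0.94 and 1.29, while a probe of an Ensembl transcript had -0.05. Whether these probes lie in the deleted sequence is not known, so they do not settle the labels. Every direction given here follows the labels as they stand. All 10 hepatocyte markers were bright enough to test, and 1 of them, Trf, was called lower, where 0.983% of all genes tested were. Its ratios were 0.27, 0.33, -1.18 and -1.51 on arrays 1 to 4, so its direction changed with the dye orientation. Those of Alb, Apob, Ttr and Serpina1c changed sign the same way and those of Tat the other way, and none of these was called.

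Bile acids return from the gut in portal blood and are taken up at the sinusoidal face of the hepatocyte. Slc10a1 encodes NTCP, which takes up conjugated bile acids together with sodium. Carriers of the Slco family, the OATPs, exchange a broad range of organic anions without sodium. Slc51a and Slc51b encode the subunits of the organic solute transporter, which lets bile acids leave across the basolateral membrane, and in rodents the gene pair is expressed far more in the ileum than in the liver. Several Slco genes of the rodent liver are known for sex-dependent expression under growth hormone.

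Among the 8 carriers tested, Slco2a1 fell under AAV_Cre and no other passed the test at an adjusted p of 0.05. That is 1 of 8 where 2.77% of the 16079 genes tested were called in either direction, 0.983% lower and 1.78% higher. The median log2 ratio of the 8 carriers was -0.05, and that of all genes tested was -0.0025. An unadjusted p under 0.05 was found for 4 of the 8, where 22.6% of all genes had one. One of the 8, Slc51b, passed the filter only through its AAV_Cre channels, and over the other 7 the median was -0.08 with 1 called. In both medians Slc10a1 stood at -0.24, by a probe that matches transcripts of several genes. Its other probe had 0.21, so no direction of the carriers is read from either median. The carriers' ratios lay on both sides of 0: Slco1a1 and Slco2a1 had ratios below -0.6, Slco1b2 was above 0.3, and the rest lay between these.

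**Figure D1:**
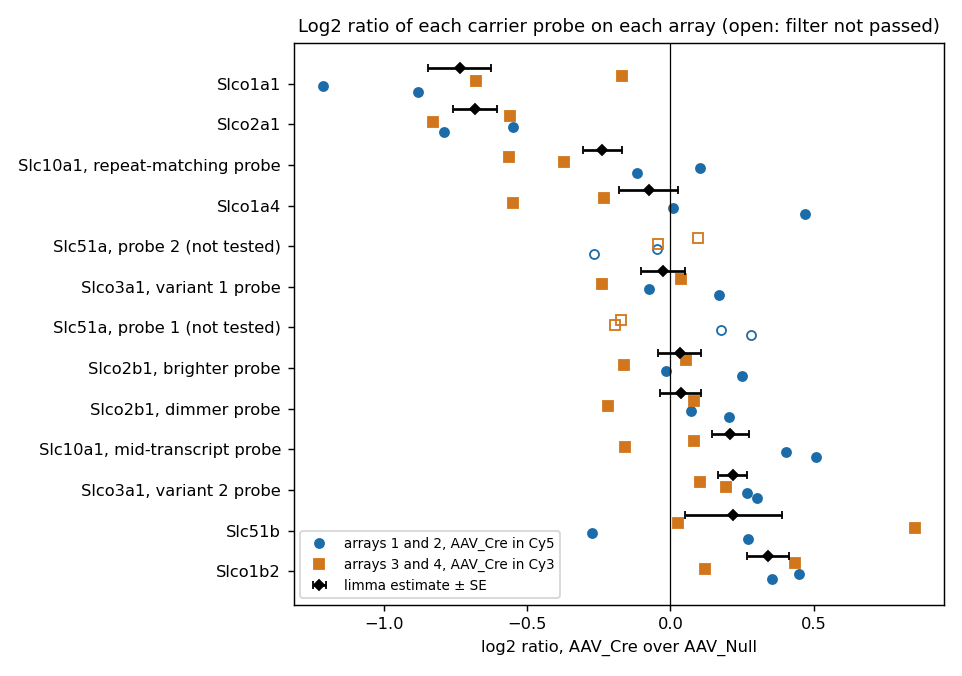
Log2 ratio of AAV_Cre over AAV_Null (horizontal axis) for each of the 13 carrier probes (vertical axis) on each of the 4 arrays, circles for arrays 1 and 2 and squares for arrays 3 and 4. Diamonds give the limma estimate with its SE for the 11 probes tested, and open symbols mark the 2 probes of Slc51a that were not tested. The 4 points of Slco2a1 lie between -0.83 and -0.55, while those of Slco1a4 lie on both sides of 0.

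Slco2a1 encodes the prostaglandin transporter, which clears prostaglandins from the extracellular space. Its probe lies at chromosome 9, 102990100 to 102990159 on mm9 (plus strand), from base 3953 of NM_033314. The channel level is the log2 intensity of one treatment's RNA on one array after normalisation, and for AAV_Null it was 12.81, 12.73, 12.91 and 12.59 on arrays 1 to 4. Under AAV_Cre it was 12.01, 12.18, 12.08 and 12.03 on the same arrays. The groups did not overlap, the lowest AAV_Null level being 12.59 and the highest AAV_Cre level 12.18. The log2 ratios were -0.79, -0.55, -0.83 and -0.56, below 0 on both dye orientations, with means of -0.67 for arrays 1 and 2 and -0.69 for arrays 3 and 4. The limma estimate was -0.68 ± 0.08 (SE, n = 4 arrays; 95% interval -0.88 to -0.48), a level 0.623 of that under AAV_Null, at an adjusted p of 0.0319. Of all genes tested, 1.42% had a ratio at least as far from 0. The dye effect was 0.01 at an adjusted p of 0.940.

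The call of Slco2a1 held in all 15 other settings tried with every array, with adjusted p between 0.000298 and 0.0490. Among the 15, the threshold of 0.10 keeps the p of the reported fit, so that setting could only repeat the call. With 1 array left out it was made in 0 of 4 fits, where the adjusted p lay between 0.0775 and 0.180 and the ratio between -0.75 and -0.61. An exact sign permutation over 4 arrays cannot reach a two-sided p under 0.125. Markers of other liver cells were read beside it, since in whole liver fewer cells of a type and less RNA per cell cannot be told apart. Over all genes tested, 22.6% had an unadjusted p under 0.05 and 2.77% were called, which are the shares to set beside the marker counts. Of 10 endothelial markers 8 had a ratio below 0, 6 had an unadjusted p under 0.05 and 0 were called in limma, with a median of -0.15 overall and of -0.003, -0.04, -0.22 and -0.21 on arrays 1 to 4. Their summed level was 15.01 to 15.11 on the log2 scale under AAV_Cre and 15.09 to 15.49 under AAV_Null. Of 8 Kupffer cell markers 7 were below 0, 1 had an unadjusted p under 0.05 and 0 were called in limma, with a median of -0.24, and array 3 had a median of 0.29 where the others were below 0. Their summed level was 14.72 to 15.70 under AAV_Cre and 15.25 to 15.90 under AAV_Null. Of 5 stellate cell markers tested 0 were below 0, 3 had an unadjusted p under 0.05 and 1, Col3a1, was called higher, with a median of 0.33 and a summed level of 15.47 to 15.95 under AAV_Cre and 14.96 to 15.78 under AAV_Null. Of 4 cholangiocyte markers tested 0 were called and 1 had an unadjusted p under 0.05. The hepatocyte markers also had a median of -0.15, but their medians changed sign between the dye orientations, where the endothelial medians were below 0 on all 4 arrays. Of these 10 hepatocyte markers 6 were below 0, 5 had an unadjusted p under 0.05 and 1 was called lower in limma. Their medians were 0.24, 0.05, -0.11 and -0.50 on arrays 1 to 4. Their summed level was 19.91 to 20.71 under AAV_Cre and 20.33 to 20.70 under AAV_Null. The part of these cell types in the fall of Slco2a1 was not tested.

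Slco1a1 encodes OATP1A1, an uptake carrier of steroid and bile acid conjugates whose expression in mouse liver is known to be male-biased. Its probe lies at chromosome 6, 141856493 to 141856552 (minus strand), from base 3216 of NM_013797. The AAV_Null channels had levels of 10.36, 9.75, 10.15 and 8.20, and the AAV_Cre channels had 9.47, 8.53, 9.47 and 8.03. Both channels of array 4 were the lowest of their group, and the groups overlapped. Within each array the AAV_Cre channel was the lower, with log2 ratios of -0.88, -1.21, -0.68 and -0.17. The estimate was -0.74 ± 0.11 (SE, n = 4; 95% interval -1.02 to -0.45) at an adjusted p of 0.0510, which misses the threshold. It passed in 9 of the 15 other settings with every array, where adjusted p ran from 0.0066 to 0.107, and in 0 of 4 with an array left out. Among the 9 is the threshold of 0.10, which keeps the p of the reported fit, so that pass follows from it. In the authors' deposited table the ratios were -0.97, -1.17, -0.70 and -0.44.

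Slco1b2 encodes OATP1B2, the rodent counterpart of the human OATP1B carriers, which takes up bilirubin and unconjugated bile acids. Its probe is at chromosome 6, 141634476 to 141634535 (plus strand). Levels under AAV_Null were 16.95, 16.80, 17.22 and 16.98, and under AAV_Cre they were 17.31, 17.25, 17.34 and 17.41. The lowest AAV_Cre level was just above the highest AAV_Null level, so the groups did not overlap. The log2 ratios were 0.35, 0.45, 0.12 and 0.44, above 0 on every array. The estimate was 0.34 ± 0.07 (SE, n = 4; 95% interval 0.15 to 0.53) at an adjusted p of 0.0908, so Slco1b2 did not pass. It passed in 6 of the 15 other settings with every array, with adjusted p from 0.00735 to 0.143, and in 0 of 4 with an array left out. Among the 6 is the threshold of 0.10, which keeps the p of the reported fit, so that pass follows from it.

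**Figure D2:**
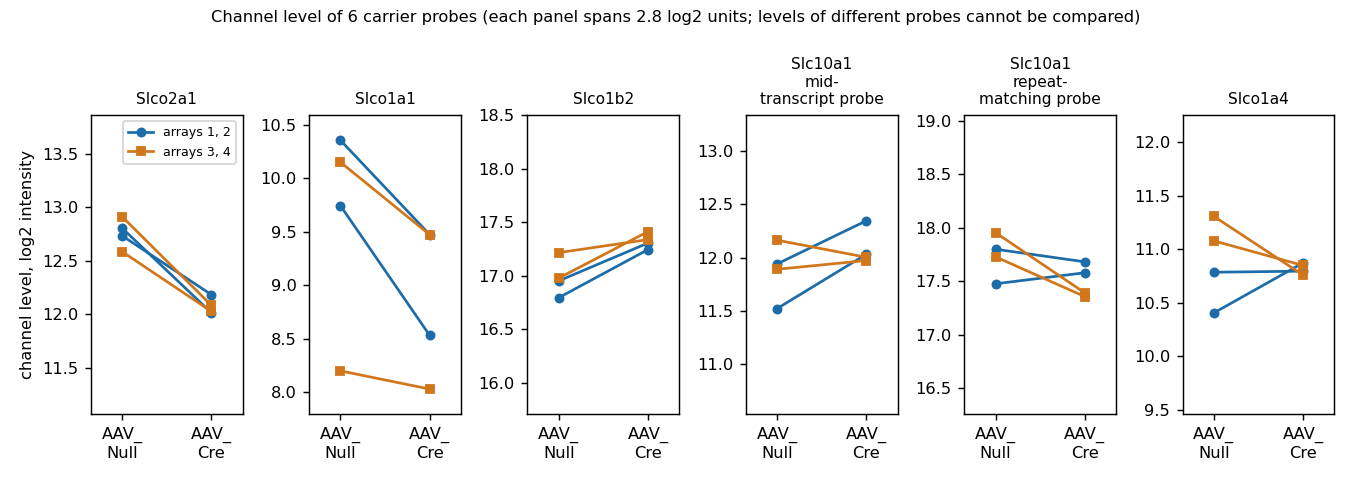
Channel level (vertical axis, log2 intensity after normalisation) under AAV_Null and AAV_Cre for 6 carrier probes, with a line for each array, circles for arrays 1 and 2 and squares for arrays 3 and 4. Every line falls for Slco2a1 and Slco1a1 and rises for Slco1b2, the groups do not overlap for Slco2a1 and Slco1b2, and the pair of Slc10a1 panels differ in direction. Levels of different probes cannot be compared, since probes differ in how brightly they bind.

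Slc10a1, the main sodium-dependent bile acid carrier of the hepatocyte, gave 2 readings that differed in sign. The brighter probe, which stood for the gene, lies at chromosome 12, 82056539 to 82056598 (minus strand), from base 1386 of NM_011387. The array files list transcripts of 4 genes for it, among them Spc24 and Med16. It shares runs of 20 bases or more with 3 probes of other genes, the longest of 26 bases. The dimmer probe, at 82061470 to 82061529 from base 598, shares no run of more than 13 bases with a probe of another gene. The first 30 bases of both are printed because the probes differ in what they share with other genes. Capitals mark the longest run shared with a probe of another gene, which reads like the consensus of the B1 repeat, a short element found throughout the mouse genome.
Slc10a1, repeat-matching probe: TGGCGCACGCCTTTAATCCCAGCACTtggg
Slc10a1, mid-transcript probe: cctacaaaggcattatgttatcactcgtca

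The repeat-matching probe had AAV_Null levels of 17.80, 17.48, 17.73 and 17.95 and AAV_Cre levels of 17.68, 17.58, 17.36 and 17.39, which overlapped. Its log2 ratios were -0.12, 0.10, -0.37 and -0.56. The estimate was -0.24 ± 0.07 (SE, n = 4) at an adjusted p of 0.143. Since this sequence matches transcripts of several genes, its signal cannot be assigned to Slc10a1 alone.
The mid-transcript probe had AAV_Null levels of 11.52, 11.94, 12.16 and 11.89 and AAV_Cre levels of 12.03, 12.34, 12.00 and 11.97, which also overlapped. Its log2 ratios were 0.51, 0.40, -0.16 and 0.08, higher on 3 of 4 arrays. The estimate was 0.21 ± 0.06 (SE, n = 4) with an adjusted p of 0.167 over all probes, so neither reading passed. The ratio of the mid-transcript probe exceeded that of the other on 4 of 4 arrays, by 0.63, 0.30, 0.21 and 0.64. Neither the size nor the sign of a change in Slc10a1 was settled by these arrays.

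Slco1a4 encodes OATP1A4, a carrier of bile acids and cardiac glycosides that is known for female-biased expression in mouse liver. AAV_Null levels were 10.41, 10.79, 11.31 and 11.08, and AAV_Cre levels were 10.87, 10.80, 10.76 and 10.85. The AAV_Cre levels all lay inside the range of the AAV_Null levels. The log2 ratios were 0.47, 0.01, -0.55 and -0.23, above 0 where AAV_Cre was in Cy5 and below 0 where it was in Cy3. The estimate was -0.08 ± 0.10 (SE, n = 4; 95% interval -0.35 to 0.20) at an adjusted p of 0.708. The dye effect of this probe was 0.31 at an adjusted p of 0.162.

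Slco2b1 encodes OATP2B1, a widely expressed carrier of sulfated steroids. Both of its probes target NM_001252530, from bases 3988 and 3966, and share 38 of their 60 bases, so they measure nearly the same stretch and are no independent readings. The last 30 bases of the upstream probe and the first 30 of the other, which both lie in the shared run and are therefore in capitals, show the overlap.
Slco2b1, upstream probe: CATACAGCTGATTATTAAATTTGTCTCTGC
Slco2b1, downstream probe: GCTGTATACATACAGCTGATTATTAAATTT

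The brighter, upstream probe of Slco2b1 had log2 ratios of 0.25, -0.02, -0.16 and 0.05, and the downstream probe had 0.21, 0.07, -0.22 and 0.08. The estimates were 0.03 ± 0.07 at an adjusted p of 0.830 and 0.04 ± 0.07 at 0.810, the last adjusted over all probes (SE, n = 4). The 95% interval of the brighter probe ran from -0.16 to 0.23. Pairs of ratios on 1 array differed by at most 0.09, which shows how closely overlapping probes repeat each other within an array.

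Slco3a1 encodes OATP3A1, a carrier of prostaglandins and other organic anions. It had 1 probe for each of 2 transcript variants. The probe of NM_023908, which stood for the gene, had log2 ratios of 0.17, -0.08, -0.24 and 0.04 and an estimate of -0.03 ± 0.08 (SE, n = 4), with an adjusted p of 0.869. The probe of NM_001038643 had ratios of 0.30, 0.27, 0.19 and 0.10, above 0 on 4 of 4 arrays. Its estimate was 0.22 ± 0.05 (SE, n = 4; 95% interval 0.08 to 0.35) with an adjusted p of 0.109 over all probes, so it did not pass. Levels of that probe were 8.27 to 8.78 under AAV_Cre and 8.08 to 8.59 under AAV_Null and overlapped, although each array had the higher level in its AAV_Cre channel. The second variant's ratio exceeded the first's on 4 of 4 arrays, by 0.07 to 0.43, and that difference was not tested.

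The organic solute transporter was at or near background. Both Slc51a probes failed the filter, with 0 and 1 of 4 AAV_Cre channels and 1 of 4 AAV_Null channels well above background, so no fold is given. Slc51b was well above background in 4 of 4 AAV_Cre channels and in 1 of 4 AAV_Null channels, and passed the filter through its AAV_Cre channels alone. Its levels were 7.29, 6.50, 7.61 and 7.36 under AAV_Cre and 7.02, 6.78, 6.76 and 7.33 under AAV_Null, and the groups overlapped. The log2 ratios were 0.27, -0.27, 0.85 and 0.03, and the estimate was 0.22 ± 0.17 (SE, n = 4), with an adjusted p of 0.495. Without array 3 the estimate was 0.01 and without array 4 it was 0.43. Since most AAV_Null channels were near background, no size or direction is read from these ratios.

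Other genes that handle bile acids and organic anions were read from lists of their own. Beside the counts of called genes below stands the share over all genes tested, 2.77%, with 0.983% lower and 1.78% higher. Beside the counts at an unadjusted p under 0.05 stands a share of 22.6% over all genes tested. Of 12 efflux carriers, which pump bile salts, phospholipid, sterols and conjugates out of the hepatocyte, 0 were called with limma, while 6 had an unadjusted p under 0.05 and the median log2 ratio was 0.06. The smallest p was that of Abcc4, MRP4, a basolateral pump for bile acids and cyclic nucleotides, with log2 ratios of 0.71, 0.56, 0.08 and 0.23 and an estimate of 0.40 ± 0.06 (SE, n = 4) at an adjusted p of 0.0506. Abcb11, the bile salt export pump of the canalicular membrane, had -0.03 at an adjusted p of 0.820. Abcc4 passed in 9 of 21 other settings and did not pass in 12. The 21, here and for the genes below, include the choices of Slc10a1 and Slco3a1 probe, which cannot change these genes' estimates. They also include the threshold of 0.10, which keeps the p of the reported fit.

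Of 17 genes of bile acid synthesis and conjugation, 2 fell, 0 rose and 15 did not pass, and the list's median was 0.06. An unadjusted p under 0.05 was found for 8 of them, and 6 of the 17 had a ratio below 0. The ratio farthest from 0 in the list was above it. It was that of Cyp8b1, with 0.23, 0.60, 0.71 and 1.32 and a limma estimate of 0.72 ± 0.13 (SE, n = 4) at an adjusted p of 0.0667. Amacr, the racemase that turns the side chain of bile acid intermediates to the form that peroxisomes can shorten, had ratios of -0.59, -0.90, -0.32 and -0.29 and fell by 0.53 on the log2 scale (SE 0.07, n = 4) at an adjusted p of 0.0417. Slc27a5, the bile acid CoA ligase that prepares returning bile acids for conjugation, had -0.18, -0.27, -0.50 and -0.48 and fell by 0.36 on the log2 scale (SE 0.05, n = 4), with an adjusted p of 0.0461. Cyp7a1, the rate-limiting enzyme of the classic route, had 0.38 ± 0.19 at an adjusted p of 0.331. Amacr lost its call in 7 of 21 other settings and Slc27a5 in 10 of 21.

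Of 18 regulators tested, 1 was called. Nr1i2, the xenobiotic receptor PXR, whose known targets include Slco1a4, had ratios of 0.51, 0.47, 0.67 and 0.34 and rose by 0.49 on the log2 scale (SE 0.07, n = 4), with an adjusted p of 0.0497. Slco1a4 itself is given above and did not pass. Nr1h4, the bile acid receptor FXR, had 0.40 at an adjusted p of 0.0520, and Nr0b2, its target SHP, had -0.23 at an adjusted p of 0.302. Cebpa, which is not among the 18, fell by 0.59 on the log2 scale (SE 0.06, n = 4), with an adjusted p of 0.0298. Cebpa lost its call with no dye effect (adjusted p 0.0632) and with any 1 array left out (0.0721 to 0.210). The call of Nr1i2 was lost in 8 of 21 other settings.

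The sharpest falls among organic anion carriers lay outside the Slco and Slc10 families. Of 9 organic anion and cation carriers tested, most of them Slc22 genes, 2 fell and 0 rose. Slc22a7, the organic anion transporter OAT2, had log2 ratios of -2.21, -2.23, -1.71 and -2.42 and an estimate of -2.14 ± 0.13 (SE, n = 4) at an adjusted p of 0.0127, so its level was 0.227 of that under AAV_Null. Slc22a27, a carrier of the same family, had -0.81, -1.08, -1.89 and -1.89 and an estimate of -1.41 ± 0.07 (SE, n = 4) at an adjusted p of 0.00962. Each lost its call without array 1, 2 or 4, with adjusted p of 0.106, 0.126 and 0.0510 for Slc22a7 and 0.0595, 0.0835 and 0.0634 for Slc22a27. Of 15 other Slco and Slc10 genes, 5 passed the filter and 0 were called, with 0 at an unadjusted p under 0.05, and Slc10a3, of smallest p among them, had 0.11 at an adjusted p of 0.325. Slc10a2, the ileal bile acid carrier, had 0.36 ± 0.45 (SE, n = 4).

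**Figure D3:**
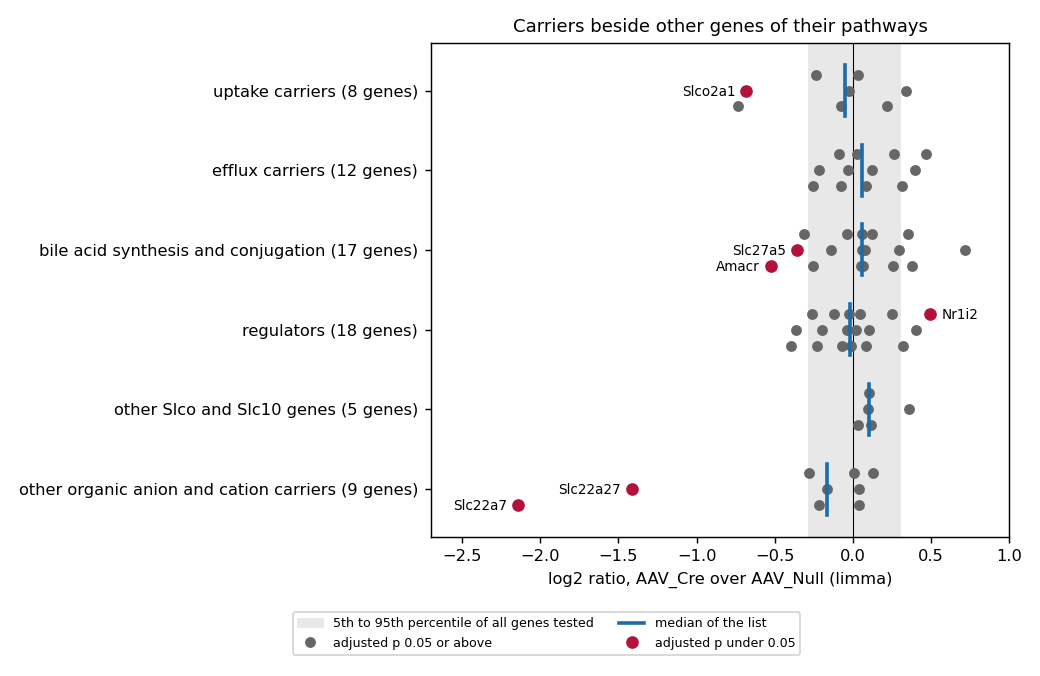
Limma log2 ratio of AAV_Cre over AAV_Null (horizontal axis) for each gene tested in the carrier group and in 5 lists of related genes (vertical axis), with genes past the threshold named and each list's median as a vertical bar. The shaded band runs from the 5th percentile of all genes tested, -0.28, to the 95th, 0.30. Slco2a1 is called among the carriers, and Slc22a7 and Slc22a27 lie farther below 0 than any carrier.

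The promoters of the carriers were searched for patterns of factors known in hepatocytes, in windows of 300 bases from 250 before to 50 after the start, on GRCm38.p6 from RefSeq. Windows were found for 8 of the 9 genes, 11 windows in all. The pattern TTGCNNAA, C/EBP-like, on either strand, was in 1 of the 11 windows and in 10.8% of all 32851 windows of the table. The pattern TTCNNNGAA, STAT5-like, was in 5 of 11 and in 8.30% of all. The pattern GTTAATNAT, HNF1-like, was in 1 of 11, that of Slco1b2, and in 0.801% of all. The HNF1-like match of Slco1b2 began 66 bases before the start, and it is printed as the rarest of the patterns, with the match in capitals, at chr6:141629441-141629470 on the plus strand.
Slco1b2, promoter stretch: ctgaagagataGTTAATCATcactgaactg
The Slco2a1 and Slco1a1 windows held none of the 3 patterns, which says only that these letters are not in those windows. A match is a description of the sequence and not a measured binding site.

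The calls of the carriers depended on whether all 4 arrays were used and on the processing and error model. Over the settings with every array, 1 to 4 carriers were called, and with any array left out the number was 0, where the whole table had 13, 0, 37 and 0 genes called without arrays 1, 2, 3 and 4 and 2418, 2103, 3151 and 3305 at an unadjusted p under 0.05. With every array, Slco2a1 stayed on one side of the threshold while Slco1a1 and Slco1b2 lay on both.

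**Figure D4:**
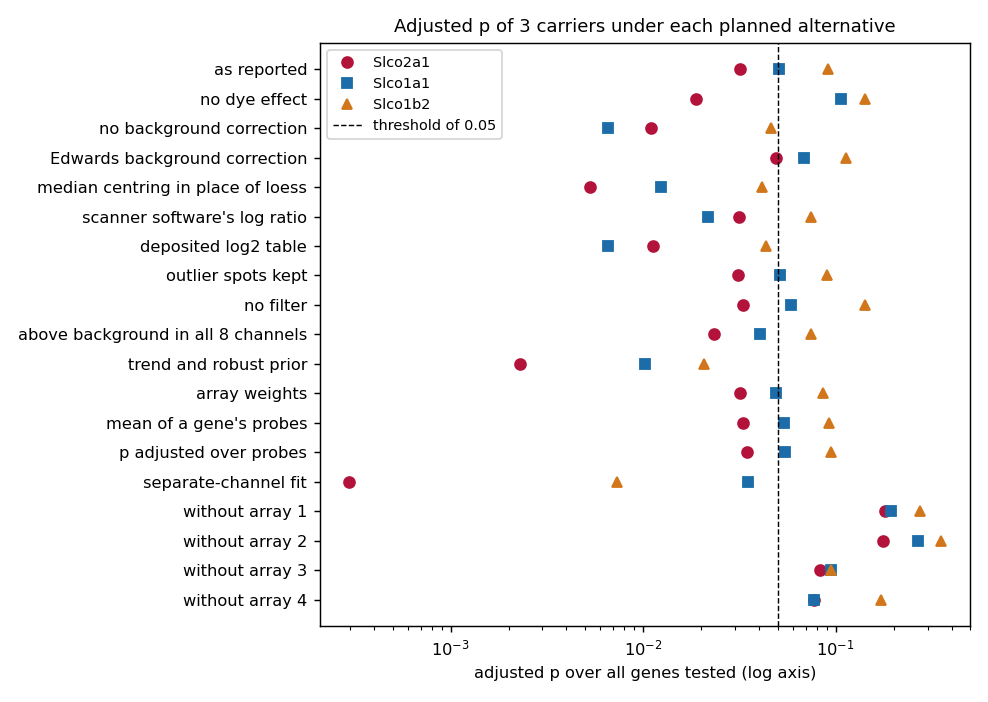
Adjusted p over all genes tested (horizontal axis, log scale) of Slco2a1, Slco1a1 and Slco1b2 in the fit as reported and in each other setting of the processing or the fit (vertical axis), with the threshold of 0.05 as a dashed line. Slco2a1 lies left of the line in every setting that uses all 4 arrays and right of it in the 4 settings with an array left out.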

How the data were processed

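The spot intensity of both dyes and the local background were deposited as read by Agilent Feature Extraction 11.5.1.1, and the log10 ratio it gives for Cy5 to Cy3 comes from signals it corrected itself, per the file headers. The authors also deposited a table of log2 values; over bright spots its slope on the log10 ratio was 3.34 on arrays 1 and 2, -3.29 on array 3 and -3.41 on array 4 (log2 of 10: 3.32), so it holds AAV_Cre over AAV_Null on a log2 scale with unstated normalisation steps. The submitters' processing notes also name limma.

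Here, mean intensities were corrected with normexp (offset 50) and normalised by loess in limma 3.58.1 under R 4.3.3, with control spots at weight 0 and outlier spots left out. A probe was tested if well above background in at least 3 of 4 channels of either treatment. Log2 ratios were fitted with lmFit and eBayes on treatment and dye, which leaves 2 residual degrees of freedom. A dye effect takes up any difference between the arrays of opposite orientation, so neither the SE nor the p-values hold it. Precision is limited by the number of arrays, 4, and the median SE was 0.06. The brightest probe stood for a gene, its p was adjusted over 16079 genes by Benjamini-Hochberg (threshold 0.05), and those of other probes over all 20335 probes. Channel levels followed Aquantile normalisation. Shared runs were sought over the probe sequences of the array, with capitals for runs of 20 bases or more. Probe coordinates come from the array files, on mm9. The labels give 2 labelling procedures, and which was used was not settled.

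The members, the lists and the alternatives were chosen with earlier results of these data known. Named genes are all 9 members, Trib1, Cebpa and per list up to 4 called genes or the gene of smallest p. Abcb11, Cyp7a1, Cyp8b1, Nr1h4, Nr0b2 and Slc10a2 were chosen after seeing their values. On simulated data the fit was tested before use. Alternatives were a separate-channel fit, a fit with no dye effect, other background correction, normalisation, filters, probe rules, priors and array weights, the deposited values, another threshold and each array left out. Figures were drawn with matplotlib 3.10.9.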

Additional observations from a re-analysis of the deposited data

Results flagged for a closer look

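For Slco1a4 and for 1 Slc51a probe the ratios of the 2 dye orientations had opposite signs. The mean log2 ratio of Slco1a4 was 0.239 where AAV_Cre was in Cy5 and -0.390 where it was in Cy3, and its dye effect had an adjusted p of 0.162. The Slc51a probe of the Ensembl transcript had 0.229 and -0.183, but with 0 AAV_Cre channels and 1 AAV_Null channel well above background these ratios give no direction, and their difference was not tested. The median of the bile acid synthesis list was -0.038 and 0.038 on the same pairs of arrays, a difference that was not tested.

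In 3 of 56 sets of 4 values examined, 1 array lay far from the rest. These were the AAV_Cre level of the mid-transcript Slc10a1 probe on array 2, at 12.344 on the log2 scale, the AAV_Null level of the second Slco3a1 variant on array 3, at 8.589, and the log2 ratio of Fgfr4, a receptor that represses bile acid synthesis, on array 1, at -0.508. The 56 sets are not independent, since they include the ratios and the levels of the same probes. How many would lie this far out by chance was not computed, and the cause was not tested.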

How the results depend on the processing

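Of 16079 genes 445 were called as reported. The count was 270 with no dye effect and also 270 with Edwards background correction, sharing 201 genes, and 1403 with no background correction, 756 with median centring, 730 with the scanner software's log ratio, 1382 with the deposited log2 values, 1472 with a trend and robust prior, 1287 at a threshold of 0.10 and 2490 in the separate-channel fit. With an array left out it was 0 to 37. Carriers called numbered 3 with no background correction, median centring, the deposited values, the trend and robust prior or a threshold of 0.10. They numbered 2 with the scanner's ratio, the filter on all 8 channels or array weights, 4 in the separate-channel fit and 0 with any array left out.

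Slco1a1 passed at -0.81 with no background correction, -0.72 with median centring, -0.90 with the scanner's ratio, -0.82 with the deposited values, and at -0.74 with the filter on 8 channels, the trend and robust prior, array weights, the threshold of 0.10 and the separate-channel fit. Slco1b2 passed at 0.33 with no background correction, 0.47 with median centring, 0.35 with the deposited values, and at 0.34 with the trend and robust prior, the threshold of 0.10 and the separate-channel fit. Slco2a1 had -0.75 to -0.61 with an array left out, past the threshold in none of those fits. The repeat-matching Slc10a1 probe passed at -0.24 in the separate-channel fit, and the dimmer probe gave 0.21. Ratios near 0 changed sign. Slco1a4 had -0.19 to 0.039 and Slco2b1 -0.035 to 0.10 with an array left out. Slco3a1 had 0.011 with no background correction, 0.016 with the scanner's ratio, 0.011 with the deposited values, 0.10 with the mean of a gene's probes, 0.22 by its variant 2 probe and -0.10 to 0.042 with an array left out. The choices of Slc10a1 and Slco3a1 probe were added after seeing the data. The cause of these shifts was not tested, beyond fewer arrays where one was left out. The share of calls that were higher moved from 64.5% to 51.0% in the separate-channel fit. The fit is paired by construction, since each ratio compares both treatments on 1 array, and the dye orientations share no replicate number, so no further block was fitted. Signal over background limits Slc51a and Slc51b.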
